A study of Mus musculus with 6 samples.

Results

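The replication histone genes are the clustered Hist1 to Hist4 genes, which encode the linker histone H1 and the core histones H2A, H2B, H3 and H4. They were taken by symbol (Hist1h to Hist4h) from the deposited table of 22899 genes. Of 67 such symbols, 66 had values and made up the family: 6 H1, 18 H2A, 18 H2B, 12 H3 and 12 H4 genes, of 18071 genes with values in all. The remaining one, Hist1h4n, was blank in every library. The family was picked out with its lower values under fluid shear stress already known from these libraries. Every count and test of that contrast is therefore a description, and no independent support for its direction. The cells were immature dendritic cells (imDCs), derived from femur and tibia marrow of male C57BL/6 mice, 7 weeks old. The marrow cells had been cultured over 7 days, GM-CSF at 20 ng/ml together with IL-4 at 10 ng/ml in the medium, and then been selected by CD11c. In the FSS group a rotating cone loaded the dish with fluid shear stress of 10 dyn/cm2 for 3 h, and in the static group the cells were kept without flow. Each group has 3 libraries, numbered 1 to 3 in both, and the comparison asks what shear changes in the RNA of imDCs. Nothing in the labels says whether the libraries come from separate mice or cultures, so p-values speak of the spread among these 6 libraries alone, which may be technical.

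Core histones form the octamer that DNA wraps around, and H1 binds the linker DNA where it enters and leaves that octamer. Cells make most of this protein while they copy their DNA. The messenger RNAs of these genes are unusual in that they carry no poly(A) tail. They end a few bases after a short stem-loop, which the stem-loop binding protein (Slbp) holds through processing, translation and decay. When DNA replication stops, these messengers are degraded within a short time.

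The stem-loop is shown because it is the feature that sets this family apart from other messengers. A stem of 6 base pairs, opening with GG and ending before its loop in T, and a loop of T, C or T, T, then A, C or T, were searched for on the transcribed strand in the GENCODE vM21 transcript models, which cover all 66 genes. The models of 45 histone genes hold it, against 5 of 21834 other protein-coding genes (0.0229%). The models of the other 21 histone genes do not. Several of those are short, so a model may stop before a stem-loop that the gene has. The same 16 letters, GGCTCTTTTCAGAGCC, stand in 26 genes of the H1, H2A, H2B and H3 classes. The form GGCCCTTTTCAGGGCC is in 6 genes, all H4, and the other forms are in 1 to 6 genes each. Stem and loop are in capitals below, written as DNA with 5 bases on either side, for members described later.
Hist1h1c: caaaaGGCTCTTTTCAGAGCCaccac
Hist2h2aa1: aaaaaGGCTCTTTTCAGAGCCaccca
Hist2h2ac: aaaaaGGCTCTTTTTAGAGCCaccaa
Hist1h2bg: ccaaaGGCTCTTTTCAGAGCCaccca
Hist1h3g: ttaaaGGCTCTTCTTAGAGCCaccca
Hist1h4d: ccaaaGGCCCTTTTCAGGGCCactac
Hist1h4i: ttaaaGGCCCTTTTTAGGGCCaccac

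Promoters are shown for 4 members: Hist1h1c and Hist1h4d, with the highest levels in H1 and H4, and Hist2h2ac and Hist2h2bb, which have large differences between the groups. RefSeq promoter sequences (GRCm38.p6) were matched by gene ID for 61 of the 66 genes, and the 250 bases before each start were searched on both strands for 4 motifs. CCAAT, the site of the factor NF-Y, is in 83.6% of the 61 promoters, against 34.5% of all 27025 promoters in the table. It is in every one of the 6 H1, 18 H2A and 16 H2B promoters, in 8 of 10 H3 promoters and in 3 of 11 H4 promoters. TATAA is in 63.9% against 23.5%. ATTTGCAT, the octamer known from H2B promoters, is in 7 H2A and 6 H2B promoters and in none of the other classes, against 1.61% of all promoters. AAACACA, known as the AC box of H1 genes, is in 5 of 6 H1 promoters against 6.22% of all. A match of letters is a description and not evidence of binding. The 120 bases up to the start follow, with matches of the 4 motifs, on either strand, in capitals.
Hist1h1c, chr13:23738687-23738806, plus strand: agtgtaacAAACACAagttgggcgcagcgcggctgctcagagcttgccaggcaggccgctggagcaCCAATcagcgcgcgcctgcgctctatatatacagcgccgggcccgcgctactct
Hist2h2ac, chr3:96220881-96221000, minus strand: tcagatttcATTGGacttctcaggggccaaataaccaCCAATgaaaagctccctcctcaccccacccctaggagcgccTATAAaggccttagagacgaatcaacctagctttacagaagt
Hist2h2bb, chr3:96269580-96269699, plus strand: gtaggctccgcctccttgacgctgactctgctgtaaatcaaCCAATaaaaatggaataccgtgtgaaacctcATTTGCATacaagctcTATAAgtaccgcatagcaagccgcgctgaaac
Hist1h4d, chr13:23581448-23581567, plus strand: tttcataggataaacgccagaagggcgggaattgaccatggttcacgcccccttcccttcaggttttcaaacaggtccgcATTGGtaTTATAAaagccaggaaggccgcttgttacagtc

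Values were taken as FPKM, a unit inferred from the values because the files do not name one: fragments per kilobase of transcript and per library size, so levels of different genes are compared per length. Library sums of FPKM lay between 413898 and 470596, and 10390 to 10959 genes reached 1 FPKM. The number of reads behind a value is unknown. A member was tested if it reached 1 FPKM in at least 3 libraries, which 62 of the 66 did. Each of the 62 reached it in at least 1 library of both groups. Hist2h2ab and Hist1h2ap reached it in every static library, but only in FSS replicate 2 and FSS replicate 3, respectively. Those not tested are Hist1h1t, Hist1h2aa and Hist1h2ba, known as testis forms, and Hist3h2ba. All log2 differences are FSS minus static on log2(FPKM + 1), which understates changes of low genes.

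Levels spread widely within the family. The mean over the 6 libraries had a median of 25.6 FPKM over the 66 genes and reached 161 FPKM in Hist1h4d. By class, the median of the gene means was 29.2 FPKM for H1, 15.3 for H2A, 21.9 for H2B, 35.5 for H3 and 32.2 for H4. The highest gene mean was 154 FPKM in H1 (Hist1h1c), 116 in H2A (Hist2h2aa1), 69.0 in H2B (Hist1h2bg) and 75.2 in H3 (Hist1h3e). H3 and H4 had no member below 6 FPKM on average, their lowest being Hist2h3c1 (6.15 FPKM) and Hist4h4 (8.76 FPKM). The testis forms marked the lower end: Hist1h2aa and Hist1h2ba were listed at 0 in 5 libraries, and at 0.06 and 0.07 FPKM in static replicate 3. Hist1h1t lay between 0.05 and 0.29 FPKM, and Hist3h2ba between 0.23 and 1.40 FPKM.

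The summed level of the 66 histone genes was lower with FSS than without flow in each numbered pair. It was 1308, 2648 and 3833 FPKM in static replicates 1, 2 and 3, and 769, 1998 and 1878 FPKM in FSS replicates 1, 2 and 3. The static libraries averaged 2596 ± 1264 FPKM and the FSS libraries 1548 ± 678 FPKM (SD, n = 3 each), a ratio of 1.68. Within the pairs static exceeded FSS by 1.70, 1.33 and 2.04 times. The groups nevertheless overlapped. Both libraries numbered 1 were low, and static replicate 1 was below FSS replicates 2 and 3. Histone genes made up 0.186% to 0.815% of a library's summed FPKM. These are bulk samples, in which fewer cycling cells and less histone RNA per cell cannot be told apart. The selection of messenger RNA is not given, and these messengers carry no poly(A) tail. Uneven capture of such RNA between libraries cannot be told apart from either, and the values may not stand for all histone RNA.

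**Figure D1:**
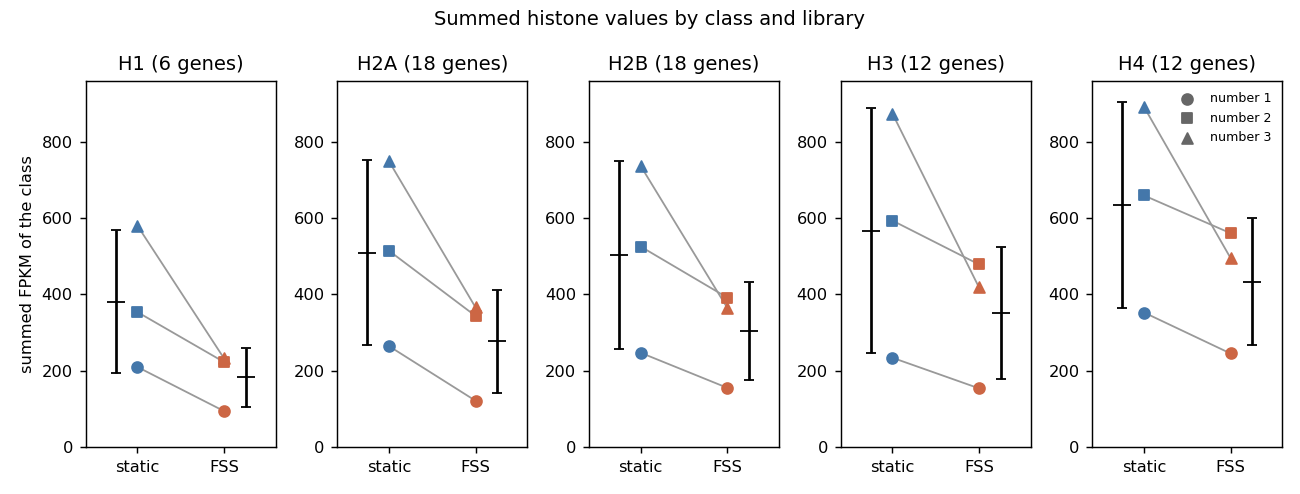
Summed FPKM of each histone class (vertical axis) in static and FSS libraries. Symbols mark the replicate number, grey lines join libraries of one number, and black bars give the mean ± SD of 3 libraries. In all 5 classes each FSS library is below the static library of its number, and both libraries numbered 1 are lowest in their group.

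Gene by gene, the median log2 difference over the 66 was -0.56, and -0.58, -0.29 and -0.87 in pairs 1, 2 and 3. The value was lower under FSS in 55, 57 and 63 of the 66 genes in the 3 pairs. In 51 genes it was lower in all 3 pairs, a direction found in 47.3% of all genes tested. Among the 62 tested the median was -0.59 against -0.12 over all 10899 genes tested. Scaling libraries by median ratios moved the median over all genes to 0.02 and that of the histone genes to -0.44, with 57 of 62 lower in place of 58. The mean log2 value of 65.8% of all genes tested was lower. The size depended on which libraries stood in each group. With both libraries of number 1, 2 or 3 left out, the median over the histone genes tested was -0.60, -0.76 or -0.44. A single library left out instead leaves its number unpaired, and the numbers differed in histone level. Without FSS replicate 1 the median over the 66 was -0.13, without static replicate 3 it was -0.23, without FSS replicate 2 it was -0.87, and without static replicate 1 it was -1.03.

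The fit without regard to the numbers called no histone gene in either direction by limma at an adjusted p under 0.05 (background 0.862% lower and 0.853% higher). Median ratio scaling left this at none (background 0.651% lower and 1.45% higher). At an unadjusted p under 0.05 the fit had 10, all lower (background 13.8% lower and 4.27% higher), and with scaling 6, all lower (background 8.5% lower and 8.44% higher). With the replicate number as a block, which compares libraries of the same number, 48 of the 62 were lower, none was higher and 14 were not called (background 25.1% lower and 7.73% higher). When genes of low level were kept in the blocked fit, an alternative chosen after seeing the data, limma called none of the 66 histone genes (background 0% of 18071 genes in either direction). Their lowest adjusted p was 0.0685, and 39 were at an unadjusted p under 0.05, all lower (background 21.3% lower and 8.04% higher). With the block and median ratio scaling, 42 were lower and 1 higher (background 16.8% and 19.2%). Every FSS library was below every static library for 7 genes, Hist1h1c, Hist1h1e, Hist2h2aa1, Hist2h2ab, Hist2h2ac, Hist3h2a and Hist1h2be. They are 11.3% of the 62, a smaller share than over all genes tested (background 20.4%). In no histone gene was every FSS library above (background 5.1%). Hist3h2a and Hist2h2ab in this list were taken up after their values were seen.

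**Figure D2:**
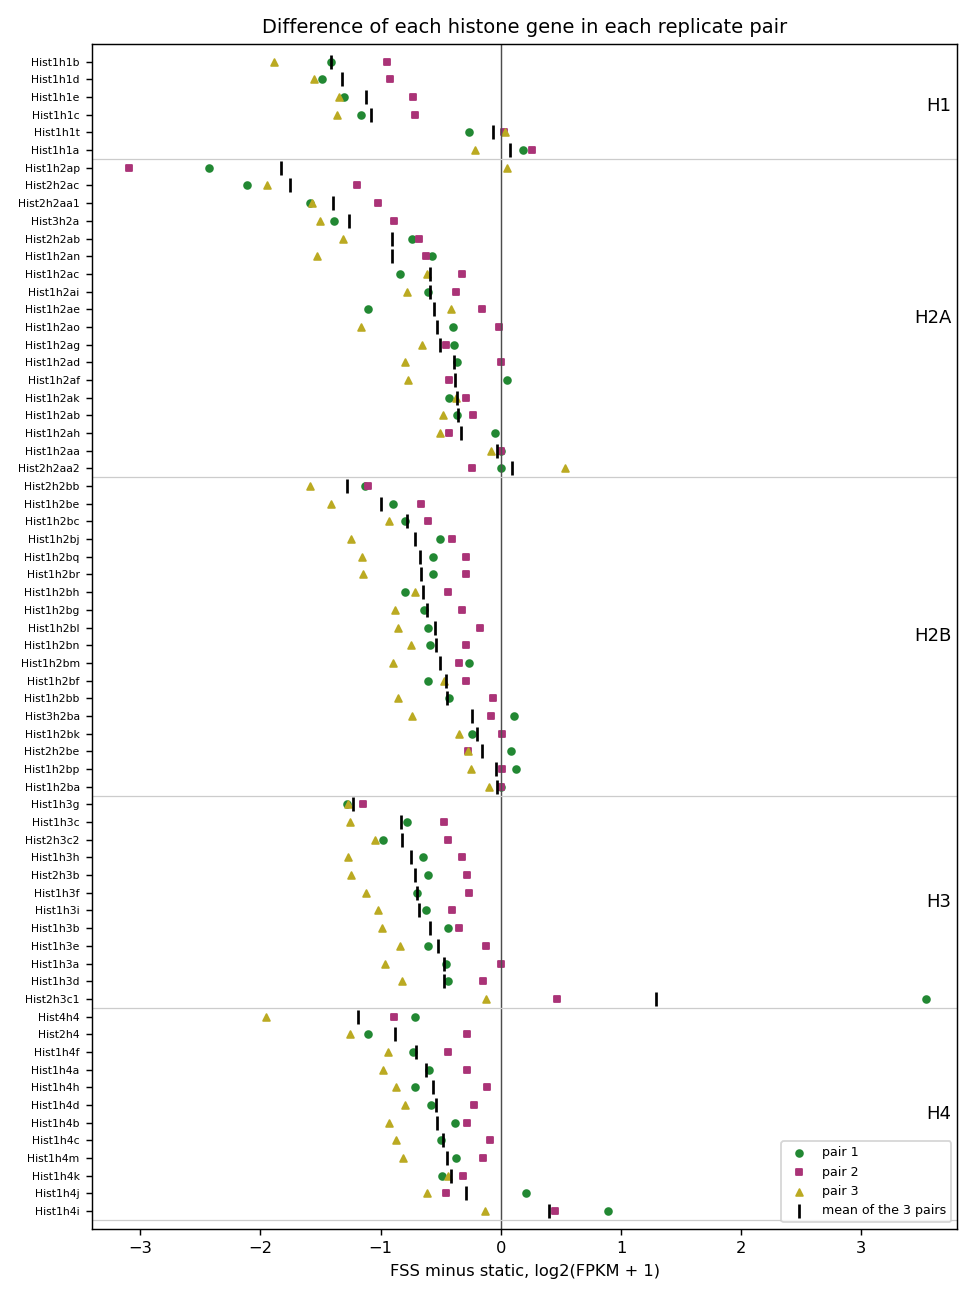
FSS minus static difference on log2(FPKM + 1) (horizontal axis) of each of the 66 histone genes, by class. Symbols are the 3 pairs of one replicate number and the black bar is their mean. Most symbols are left of 0, and Hist1h4i, Hist2h3c1 and Hist1h1a are among the few with means to the right.

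Of the linker histones, 4 of the 5 tested genes were lower with the block, and 1, Hist1h1a, was not called. The background for this and all later counts of genes lower with the block is 25.1% of all genes tested. The class sum was 210, 354 and 581 FPKM in static replicates 1 to 3 and 94.1, 223 and 233 FPKM in FSS replicates 1 to 3, a ratio of means of 2.08. Hist1h1c, which encodes the most abundant linker histone transcript here, measured 126, 196 and 307 FPKM without flow and 55.8, 120 and 119 FPKM with FSS. Its groups did not overlap. The log2 difference was -1.08 (SE 0.40, limma adjusted p = 0.205 without the block; SE 0.12, adjusted p = 0.00158 with it). Hist1h1e was at 37.9, 59.6 and 85.4 FPKM in static libraries and at 14.8, 35.6 and 33.0 FPKM in FSS libraries, again without overlap, with a difference of -1.13. Hist1h1d (-1.32) and Hist1h1b (-1.41) had differences as large, but their static replicate 1 lay within the range of the FSS libraries. Hist1h1b ran from 12.4 to 67.7 FPKM without flow and from 4.03 to 17.6 FPKM with it. Hist1h1a, another linker histone gene of the same cluster, taken up after its values were seen, measured 10.4, 25.2 and 44.1 FPKM in static libraries and 12.0, 30.5 and 37.9 FPKM in FSS libraries. It followed the replicate number rather than the group: its mean was 26.6 FPKM in static and 26.8 FPKM in FSS libraries (log2 difference 0.08, adjusted p = 0.963 without and 0.637 with the block).

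In the H2A class 12 of 17 tested genes were lower with the block and none higher, and the class sums had a ratio of 1.84. Hist2h2aa1, the class member with the highest mean, measured 108, 160 and 238 FPKM in static and 35.1, 78.3 and 79.3 FPKM in FSS libraries. The groups did not overlap, and the log2 difference was -1.39 (adjusted p = 0.116 without the block, 0.000784 with it). Hist2h2ac, beside it in the Hist2 cluster, measured 21.9, 32.4 and 52.8 FPKM without flow and 4.29, 13.6 and 12.9 FPKM with FSS. Its ratio of means was 3.48 and its log2 difference -1.75, the second lowest in the family (adjusted p = 0.0998 without the block). Most H2A genes of the Hist1 cluster had smaller differences. Hist1h2ab, second in mean level, was at 22.7, 60.1 and 91.8 FPKM in static and 17.4, 51.1 and 65.5 FPKM in FSS libraries, with wide overlap. Its difference was -0.36 (adjusted p = 0.831 without the block, 0.0229 with it and 0.0956 after scaling as well). In pairs 1, 2 and 3 it was -0.36, -0.23 and -0.48. The difference turned to 0.07 without static replicate 3 and to 0.20 without FSS replicate 1, omissions that leave a number unpaired.

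In the H2B class 12 of 16 tested genes were lower with the block and none higher, with a ratio of class sums of 1.66. Hist1h2bg, the highest, measured 45.8, 88.8 and 117 FPKM in static and 29.1, 70.7 and 62.8 FPKM in FSS libraries. The groups overlapped, the log2 difference was -0.62, and the adjusted p was 0.513 without and 0.00747 with the block. Hist1h2bc was at 42.5, 67.6 and 87.0 FPKM without flow and at 24.0, 44.0 and 45.3 FPKM with FSS (-0.78). In Hist1h2be the static libraries (33.1, 52.5 and 80.1 FPKM) all exceeded the FSS libraries (17.3, 32.7 and 29.4 FPKM), by little where they came closest, and the difference was -0.99. The lowest difference of the class was that of Hist2h2bb (-1.28), which was taken up after its values were seen. The remaining H2B differences ran up to -0.03, that of Hist1h2ba, which was not tested and was listed at 0 in 5 libraries. Hist1h2bp, also taken up afterwards, was at 9.56 to 13.4 FPKM in static and 10.5 to 13.0 FPKM in FSS libraries, and its difference of -0.04 became 0.11 under median ratio scaling. Hist1h2bq and Hist1h2br, taken up likewise, were both called lower with the block. Hist1h2bq measured 18.2, 39.2 and 55.8 FPKM in static and 12.0, 31.8 and 24.5 FPKM in FSS libraries. Hist1h2br had the same rounded values except in FSS replicate 3 (24.6 FPKM). Of the stretches of 50 bases in the Hist1h2bq model, 97.3% also occur in Hist1h2br. These genes may not be separate measurements, and the class and family counts and sums hold both.

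**Figure D3:**
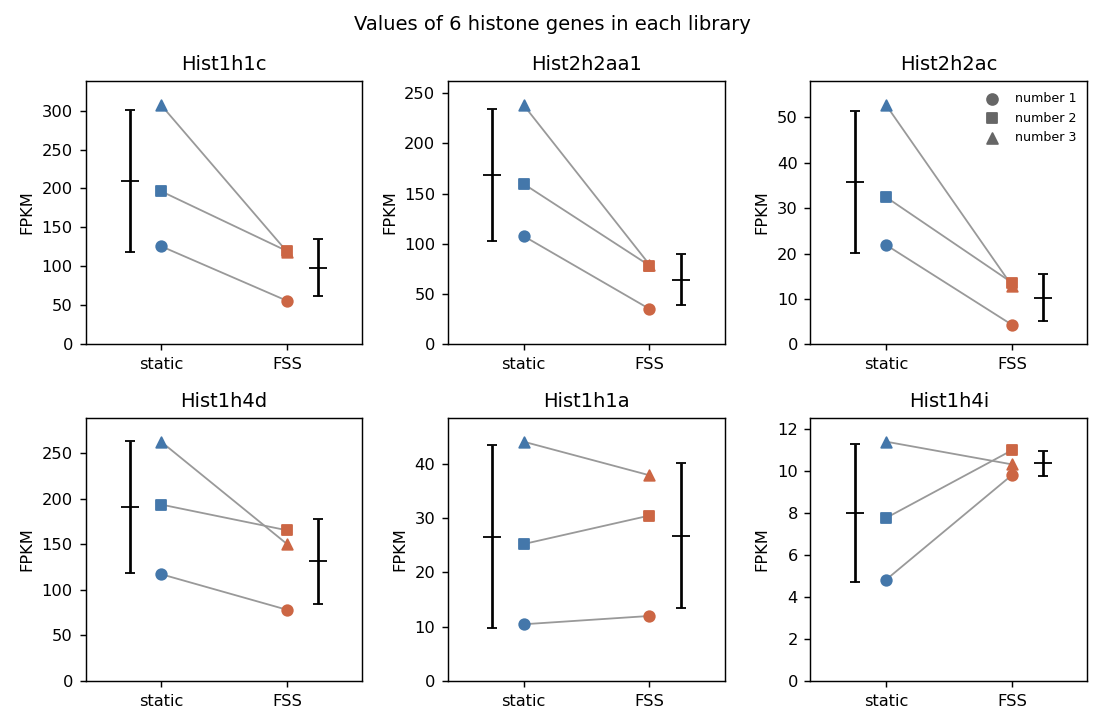
FPKM (vertical axis, from 0) of 6 histone genes in static and FSS libraries. Symbols mark the replicate number, lines join libraries of one number and bars give the mean ± SD of 3 libraries. Hist1h1c, Hist2h2aa1 and Hist2h2ac show no overlap between groups, Hist1h4d overlaps but is lower in each pair, and Hist1h1a and Hist1h4i are not lower in pairs 1 and 2.

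Of the H3 genes, all 12 were tested, 10 were lower with the block and none was higher. The class sums had a ratio of 1.62 and no gene had groups free of overlap. Hist1h3e measured 47.7, 90.2 and 129 FPKM in static and 31.1, 82.5 and 71.3 FPKM in FSS libraries (log2 difference -0.52, adjusted p = 0.0227 with the block). Hist2h3c2 was at 37.0, 90.9 and 135 FPKM and at 18.3, 66.6 and 64.8 FPKM (-0.82), and Hist1h3c at 29.4, 81.1 and 127 FPKM and at 16.7, 58.2 and 52.8 FPKM (-0.83). In these 3 genes the static library numbered 1 was lower than the FSS libraries numbered 2 and 3. Hist1h3g, whose form of the stem-loop shown above no other member has, had the lowest difference of the class (-1.23, pairs -1.28, -1.15 and -1.27). It was taken up after its values were seen.

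The H4 class had the smallest ratio of class sums, 1.46, with 10 of 12 genes lower with the block. Hist1h4d, the histone gene with the highest mean, measured 117, 194 and 263 FPKM without flow and 78.1, 165 and 150 FPKM with FSS. The difference was -0.54, with overlap between groups (adjusted p = 0.516 without and 0.0111 with the block). Hist1h4m was at 64.1, 109 and 159 FPKM in static and 49.3, 98.0 and 90.2 FPKM in FSS libraries (-0.44), and Hist1h4c at 36.2, 71.8 and 93.1 FPKM and at 25.4, 67.5 and 50.6 FPKM (-0.48). Both were called with the block (adjusted p = 0.0327 and 0.0364) and neither after scaling as well (0.0609 and 0.0526). Hist1h4i went the other way in pairs 1 and 2. It measured 4.81, 7.75 and 11.4 FPKM in static and 9.79, 11.0 and 10.3 FPKM in FSS libraries. Its difference was 0.40 (adjusted p = 0.492 without and 0.116 with the block), and it was the 1 gene called higher with the block and scaling (adjusted p = 0.0137).

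Several members at the extremes share sequence with other genes, and reads of shared sequence cannot be divided with certainty. Of all stretches of 50 bases in the Hist1h2ap model, 93.1% also occur in Hist1h2ao. Hist1h2ap was listed at 6.49, 7.55 and 12.3 FPKM in static libraries and at 0.39, 0 and 12.8 FPKM in FSS libraries, the lowest log2 difference in the family (-1.83). This gene was the only one called without the block once a library was left out: without FSS replicate 3 its adjusted p was 0.00753. The sum of both copies was 24.1, 48.2 and 76.9 FPKM in static and 13.5, 40.2 and 41.0 FPKM in FSS libraries, a ratio of 1.58. Hist2h3c1 had the highest difference (1.30): it was listed at 0, 5.83 and 6.28 FPKM without flow and at 10.6, 8.44 and 5.70 FPKM with FSS. All of its stretches occur in some other gene, but 34.7% of them in another histone gene, and the genes outside the family that hold the rest were not part of any sum here. The sum of Hist2h3c1, Hist2h3b and Hist2h3c2, which does not settle how its reads were divided, was lower under FSS in each pair, with a ratio of 1.62. Hist2h2aa2 (0.10), all of whose stretches occur in Hist2h2aa1, was at 0.49 to 1.47 FPKM in static and 0.49 to 1.86 FPKM in FSS libraries, and its difference was -0.093 without static replicate 1. The 31 genes that share 50% or more of their stretches with another gene had a median difference of -0.54, and 24 of the 31 were lower with the block. Hist1h2bq and Hist1h2br, described above with nearly the same values, are both among these 24. The 35 that share less had a median of -0.59, with 24 of 31 tested genes lower.

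Position and gene model divided the family as follows. On the RefSeq assembly GRCm38.p6, 53 members lie in the Hist1 cluster on chromosome 13, 10 in the Hist2 cluster on chromosome 3, 2 in the Hist3 cluster on chromosome 11 and 1, Hist4h4, on chromosome 6. The static over FSS ratio of summed FPKM was 1.59 for Hist1 and 2.18 for Hist2, with median log2 differences of -0.54 and -0.85. The difference between clusters was not tested. Several genes outside the Hist1 cluster were lower in each pair by more than the family's median, among them these 3, taken up after their values were seen. Hist3h2a measured 23.8, 32.3 and 54.4 FPKM in static and 8.46, 17.0 and 18.6 FPKM in FSS libraries, without overlap (log2 difference -1.26). Hist4h4, the single gene on its chromosome, was at 6.91, 14.3 and 16.7 FPKM without flow and at 3.81, 7.28 and 3.57 FPKM with FSS (-1.19), where FSS replicate 2 slightly exceeded static replicate 1. Hist2h2bb, whose promoter is shown above, was at 17.9, 58.2 and 85.6 FPKM in static and 7.60, 26.5 and 27.8 FPKM in FSS libraries. Among other genes between the Hist1 genes, 16 had values and 3 were tested: none was called without the block and 1 was lower with it. The 22 genes whose model ends within 100 bases of the stem-loop had a median difference of -0.52, with 15 of 22 lower with the block. In the 23 whose longest model with a stem-loop runs further past it, the median was -0.62 and 18 of 21 were lower. Whether a poly(A) tail can be added in that sequence was not examined. For the 21 genes with no stem-loop in their model it was -0.59, with 15 of 19 lower. Several of these models are short, with 312 bases in Hist1h4k and 411 each in Hist1h3h and Hist1h3i. Such a model may be incomplete, so this group does not mark genes without a stem-loop. The ratio of summed FPKM was 1.68 in the first group, 1.68 in the second and 1.66 in the third.

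The machinery that makes, trims and destroys histone messengers was listed under 19 symbols, of which 18 had values and 17 were tested. None was called without the block (background 0.862% lower and 0.853% higher). With it 6 were lower and none higher (background 25.1% and 7.73%). Once scaling was added, 3 were higher and 5 lower (background 19.2% and 16.8%). Beside these counts, the unadjusted test had 5 lower and none higher (background 13.8% and 4.27%). The same backgrounds apply to the counts of the lists below. Tut7, which adds uridines to histone messengers before their decay, and Sympk, a scaffold of the cleavage complex, had the highest levels, with log2 differences of 0.24 and 0.17. Slbp, the stem-loop binding protein, was taken up after its values were seen. It measured 8.01, 9.66 and 9.17 FPKM in static and 5.55, 6.95 and 6.13 FPKM in FSS libraries, without overlap (log2 difference -0.47, adjusted p = 0.175 without and 0.00894 with the block). Npat, the coactivator of histone transcription, was taken up likewise and was at 3.44, 3.34 and 2.33 FPKM in static and 3.42, 4.49 and 2.08 FPKM in FSS libraries (0.07).

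Replacement variants, histones made outside replication from messengers with a poly(A) tail, were tested in 11 genes. None was called without the block (3 lower and none higher at an unadjusted p under 0.05), and 5 were lower and none higher with it, or 4 lower and 2 higher with scaling as well. Their summed level was 840, 937 and 911 FPKM in static and 729, 846 and 760 FPKM in FSS libraries, a ratio of 1.15 where the replication genes had 1.68. H3f3a, which encodes the H3 variant used outside replication, was at 275 to 346 FPKM in static and 254 to 335 FPKM in FSS libraries (-0.06). H3f3b, another H3 variant gene of the list, was taken up after its values were seen. It measured 151, 115 and 152 FPKM in static and 107, 97.9 and 99.6 FPKM in FSS libraries, without overlap. Its log2 difference was -0.44 (adjusted p = 0.234 without and 0.0120 with the block). H2afz measured 145, 202 and 202 FPKM in static and 112, 162 and 175 FPKM in FSS libraries (-0.30). H2afx, taken up after its values were seen, encodes a variant whose messenger can end either way, at the stem-loop or with a tail. It was at 17.6, 28.8 and 42.0 FPKM without flow and at 10.8, 19.1 and 21.5 FPKM with FSS (-0.72). Of 24 histone chaperones, which escort histones to DNA, none was called without the block (2 lower and none higher unadjusted). With it 5 were lower and none higher (background 25.1% and 7.73%). Once scaling was added to the block, 5 were higher and 2 lower, so the split of this list too depended on the scaling. Npm1 (-0.01) and Nap1l1 (-0.21) had the highest levels.

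Genes of S phase and DNA replication did not show a lower sum. Their 50 members with values summed to 286, 414 and 443 FPKM in static and 303, 434 and 413 FPKM in FSS libraries, with means of 381 ± 83.6 and 383 ± 70.0 FPKM (SD, n = 3 each). Single genes weigh in this sum, among them Mki67 and Pcna, both taken up after their values were seen. Mki67 was at 19.4, 31.0 and 14.7 FPKM in static and 48.8, 49.3 and 15.4 FPKM in FSS libraries. Pcna, the list's highest, was at 84.6, 109 and 113 FPKM in static and 62.8, 94.1 and 98.3 FPKM in FSS libraries. A sum without them was not made. Of the 48 tested, 1 was called without the block, Cdc7, a kinase that fires replication origins. It was higher, at 1.11, 2.42 and 1.44 FPKM in static and 5.62, 6.13 and 4.07 FPKM in FSS libraries (log2 difference 1.25, adjusted p = 0.0447). The block gave 5 higher and 7 lower genes (background 7.73% and 25.1%). Scaling under the block gave 17 higher and 3 lower (background 19.2% and 16.8%), so the split of this list depended on the scaling. The histone sum divided by the S phase sum was 4.57, 6.40 and 8.64 in static and 2.54, 4.61 and 4.55 in FSS libraries. It was lower under FSS in each pair, and FSS replicates 2 and 3 were near static replicate 1.

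**Figure D4:**
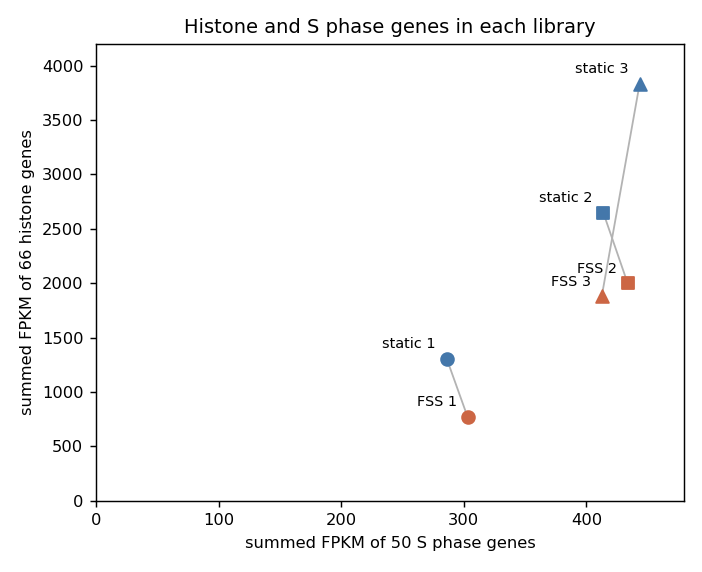
Summed FPKM of the 50 S phase and DNA replication genes (horizontal axis, from 0) against summed FPKM of the 66 histone genes (vertical axis, from 0) in each of the 6 libraries. Lines join libraries of one replicate number. Along each line the histone sum changes more, relative to its level, than the S phase sum, and both libraries numbered 1 are low on both axes.

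The replicate numbers differed in histone level as well as the groups. Libraries numbered 1 were lower than those numbered 2 and 3 by a median log2 difference of -1.38 over the 66 histone genes, against -0.55 over the S phase genes and -0.01 over all genes tested. Over the 12 neutrophil marker genes the same median was -0.68, and over the 14 dendritic cell markers it was -0.06. It was 0.23 over macrophage, 0.22 over progenitor, -0.25 over T and NK cell, -0.09 over B cell and -0.05 over erythroid markers. The summed neutrophil markers were not lowest in number 1. They were at 12298, 8246 and 10923 FPKM in static replicates 1 to 3 and 12545, 8391 and 12633 FPKM in FSS replicates 1 to 3. Dendritic cell markers, with Cd74 and H2-Aa of antigen presentation the highest, summed to 8816 to 9602 FPKM in static and 7716 to 9446 FPKM in FSS libraries. The selected Itgax (CD11c) averaged 492 FPKM, while Flt3 and Cd209a stayed under 1 FPKM in every library. Irf4, a transcription factor of these cells, was the list's 1 gene called without the block and was lower (log2 difference -1.86, adjusted p = 0.0133). With the block 6 of the 12 tested were lower and none higher, and 4 and none with scaling as well.

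Markers of other cells were present at differing levels, and their part in the histone differences was not tested. Macrophage markers summed to 297 to 359 FPKM in static and 320 to 446 FPKM in FSS libraries, led by Csf1r and Mrc1, and none of 9 tested was called without the block (1 lower and 1 higher unadjusted, 2 higher and 1 lower with the block, 4 higher and 1 lower with the block and scaling). Neutrophil markers summed to 8246 to 12298 and 8391 to 12633 FPKM, of which Chil3, also made by macrophages, averaged 10439 FPKM. None of 10 was called without the block (1 lower unadjusted), and S100a8 was the 1 lower with it (-0.66), beside none higher, or 2 higher and 1 lower with scaling as well. B cell markers summed to 31.1 to 48.5 and 26.4 to 46.3 FPKM, nearly all of it Blnk, and 4 of 8 stayed under 1 FPKM in every library. T and NK cell markers summed to 1.99 to 5.55 FPKM in static and 2.33 to 4.36 FPKM in FSS libraries, with 9 of 10 under 1 FPKM throughout. Erythroid markers reached at most 3.08 FPKM in sum, with 6 of 7 under 1 FPKM, and progenitor markers 4.66 to 11.5 FPKM, with 3 of 8 under 1 FPKM. No marker was at 0 in all 6 libraries. None of the tested markers of these last 4 lists was called with or without the block, nor had any an unadjusted p under 0.05.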

How the data were processed

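RNA of 3 static and 3 FSS imDC libraries was analysed, grouped and numbered by the sample titles. The authors deposited 1 table of expression values, identical in the series and sample files, headed only as expression per the file headers. The values were taken as FPKM because value times transcript length summed, in units of the total that FPKM would give, to 0.552 to 0.609 per library with median lengths and 1.14 to 1.28 with longest ones, so the unit is inferred. HISAT and Bowtie2 are named in the submitters' processing notes; for versions, genome build, annotation, strand use and the selection of messenger RNA, nothing is given in the sources used here. Values were blank for 4828 of 22899 genes. Depth per library is unknown, so no counting interval is given.

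From the deposited FPKM, log2(FPKM + 1) was fitted with limma 3.58.1 (R 4.3.3, trend, two-sided, Benjamini-Hochberg over 10899 genes that reached 1 FPKM in 3 or more libraries, threshold 0.05), after a test on simulated data. Every adjusted p is from these fits. The members and gene lists were chosen with earlier results of these data known. Deviations from the group means correlated at 0.79, 0.66 and 0.87 across genes between libraries numbered 1, 2 and 3, and at -0.78 to 0.28 between different numbers. Such deviations cancel within a group, so high correlations at the same number lower those between different numbers. The contrast is thus partly built in, and it comes from the same values as the blocked fit. The labels do not say what a number shares. The numbers were taken as pairs, so the model was also fitted with number as blocking factor. Named histone genes are the 3 highest per class, any called without the block and the 3 largest and 3 smallest differences, 21 in all. In other lists they are up to 3 called genes, or the 2 highest where none was called. The dendritic cell markers Cd74, H2-Aa, Itgax, Flt3 and Cd209a are outside this rule and are named for their level alone. Other genes outside it are said to be taken up after their values were seen, or are named in a count. Of the 12 small RNAs without a poly(A) tail that were listed, 0 had values in the table, so that list gives no result. Transcript models are GENCODE vM21, promoters RefSeq. Python 3.11.15, pandas 2.3.3 and matplotlib 3.10.9 were used for sums and plots. The alternatives tried were another pseudocount, no filter, a stricter threshold, 2 scalings, the block and each library left out.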

Additional observations from a re-analysis of the deposited data

How the results depend on the processing

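The replicate block changed most calls. It took the histone genes called lower from 0 to 48 and genes over the whole table from 93 higher and 94 lower to 842 and 2739. Under the block combined with median ratio scaling, 42 histone genes were lower and 1 higher, and 2090 and 1830 genes of the table were higher and lower. Leaving out both libraries of one number under the block gave 43, 50 and 46 histone genes lower (numbers 1, 2 and 3) and 0, 1 and 2 higher, with 445, 519 and 1526 genes of the table higher and 1626, 1936 and 2608 lower; the histone genes called higher there were Hist2h3c1 and Hist1h4i. The block with no filter on low values, chosen after seeing the data like the left-out numbers, called 0 genes in both directions (39 of 66 histone genes and 5301 of 18071 at an unadjusted p under 0.05 by limma). Of the 21 histone genes named by rule, the block did not change the call of Hist1h2ao, Hist2h2aa2, Hist1h4i and Hist2h3c1, nor, of those taken up later, that of Hist1h1a and Hist1h2bp.

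Without the block, no filter called 0 and 0 genes of the table (2692 at an unadjusted p under 0.05), and a threshold of 0.01 called 4 higher and 1 lower. Median ratio scaling called 158 higher and 71 lower, and equal totals 68 higher and 45 lower. Single libraries left out gave 3 to 254 higher and 0 to 161 lower, and 0 to 1 histone genes lower, that one being Hist1h2ap without FSS replicate 3. The median histone difference (-0.56) was -0.87 in pair 3 and -1.03 to -0.13 with single libraries left out. Over the histone genes tested it was -0.60, -0.76 and -0.44 with both libraries of number 1, 2 and 3 left out. The log2 ratio of the summed values (-0.75) was -0.41 in pair 2 and -1.07 to -0.35 with libraries left out. It stayed below 0 under both scalings. Hist1h2ab turned to 0.07 without static replicate 3 and to 0.20 without FSS replicate 1, and Hist2h2aa2 to -0.093 without static replicate 1 (ranges with single libraries left out -0.91 to 0.20 and -0.093 to 0.33, the second over 3 of the 6 omissions, since the gene fell below the filter in the others). Leaving out a single library leaves its number unpaired, and the cause of these changes was not tested. Near-identical copies and unknown read depth limit the values of single genes, and 3 libraries a group limit every test.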
